A study of Mus musculus with 12 samples.

Results

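Spp1, the gene for osteopontin, was followed as 1 gene of the 13283 in the deposited table across cytotoxic CD8+ T lymphocytes (CTL) that carried or lacked FOXO1 and were cultured with or without an inhibitor of the PI3K p110δ catalytic subunit. It was chosen because its mRNA was very abundant and was lower with the inhibitor, so its level and its change with the inhibitor are described here without a test. WT CTL came from GzmB cre+ mice, and FOXO1-GFP KO CTL came from FOXO1-GFPfl/fl Gzmb cre+ mice, so that all 12 libraries carried the Cre recombinase, driven by the granzyme B promoter, which is active in effector T cells. The mice were females between 11 and 27 weeks of age. Lymph node or spleen cells were activated through CD3 and CD28 for 48 h and grown in IL-2 at 20 ng/mL and IL-12 at 2 ng/mL, and from day 6 the cells received the p110δ inhibitor IC87114 (PI3Kdi) at 10 µM, or DMSO as vehicle, for 24 h. WT cells were then sorted as live CD8+ cells and FOXO1-GFP KO cells as live CD8+ cells that had lost GFP, which means that only the KO was selected on GFP. Each of the 4 groups (WT, WT+PI3Kdi, FOXO1-GFP KO and FOXO1-GFP KO+PI3Kdi) held 3 libraries, named as biological replicates 1 to 3.

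Osteopontin is a secreted, heavily phosphorylated and acidic glycoprotein. It is a component of mineralised bone matrix, and activated T cells and macrophages also secrete it as a cytokine; an older name is early T lymphocyte activation 1. It is bound by integrins, by way of an RGD sequence and a neighbouring cryptic site, and by CD44. PI3K p110δ is the main catalytic PI3K subunit of leukocytes that signals downstream of the T cell receptor and cytokine receptors, and one of its effects by way of AKT is to keep the transcription factor FOXO1 out of the nucleus.

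The Spp1 gene (ENSMUSG00000029304) is protein coding and lies on the plus strand of chromosome 5 of GRCm38, at chr5:104435118-104441050, with 7 transcripts in the GENCODE annotation and 1648 bp of merged exon sequence. The 250 bases upstream of the first start site that RefSeq lists for the gene (chr5:104434861-104435110, GRCm38.p6, plus strand) are shown as the promoter region of the gene described. Capitals mark the matches to 3 short motifs that were searched on both strands.

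Spp1 promoter: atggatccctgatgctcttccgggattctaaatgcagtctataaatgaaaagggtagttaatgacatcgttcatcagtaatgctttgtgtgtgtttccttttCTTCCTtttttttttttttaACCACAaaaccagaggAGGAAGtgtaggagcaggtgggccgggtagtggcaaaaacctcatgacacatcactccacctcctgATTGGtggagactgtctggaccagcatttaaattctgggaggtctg

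The capitals are, from 5′ to 3′, an ETS core (AGGAAG, here as its reverse complement CTTCCT) whose first base lies 148 bases before the start site, a RUNX core (ACCACA) at 128 bases, a second ETS core (AGGAAG) at 112 bases and a CCAAT box (as ATTGG) at 46 bases before it. None of these matches overlapped another. The ETS core was present in 29.6% of 32536 promoter windows of the same length, the CCAAT box in 33.8% and the RUNX core in 14%. The letters of a FOXO motif (GTAAACA, in 3.17% of windows), an AP-1 motif (TGANTCA, 6.73%), a T-box motif (TCACACC, 3.33%) and an HIF motif (ACGTG, 16.7%) were not found in this window. These matches describe the letters only.

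Values are FPKM (fragments per kilobase of exon, scaled to library size), on which genes can be compared with each other. The depth of the libraries, recovered from the steps between low values, was between 12.9 M and 48.0 M reads (M, 1e+06 reads). Because FPKM were computed on scaled libraries, this depth is a scaled library size and not a count of assigned reads. Spp1 was represented by about 8527 to 52669 reads per library, so that its counting error was between 0.436% and 1.08%. The SD between replicates was larger, between 4.43% and 15.3% of the group mean. The deletion was seen in the mRNA of the targeted gene. Foxo1 was measured at 9.99, 5.77 and 5.79 FPKM in WT and at 0.58, 1.08 and 1.44 FPKM in FOXO1-GFP KO CTL, a log2 difference of -2.71 (SE 0.39, limma adjusted p = 0.0148). CD8 T cell markers (Cd8a, Cd8b1, Cd3d, Cd3e, Cd3g, Gzmb, Prf1, Cd2 and Thy1) were all in the table, with a summed level between 9201 and 13315 FPKM, and Gzmb alone was above 7317 FPKM in every library.

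In WT CTL, Spp1 was measured at 511.89, 665.62 and 684.66 FPKM in replicates 1, 2 and 3 (621 ± 94.7, SD, n = 3). Its rank among the 13283 genes was between 69 and 73 in these libraries. The genes next to it in WT were housekeeping genes of translation: Rpl14 at 662 FPKM, Rps12 at 641 and the translation factor gene Eif5a at 633 just above it, and Rps27 at 612, Rps26 at 611 and Rpl7 at 610.0 just below it. WT+PI3Kdi CTL had 278.42, 348.79 and 335.77 FPKM (321 ± 37.4, SD, n = 3). The rank of Spp1 fell there to between 140 and 150.

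FOXO1-GFP KO CTL had the highest Spp1, with 862.75, 930.04 and 934.85 FPKM (909 ± 40.3, SD, n = 3) and a rank between 33 and 52. With PI3Kdi the same genotype had 542.32, 540.68 and 484.44 FPKM (522 ± 33.0, SD, n = 3), with a rank between 88 and 112. In each library Spp1 made up between 0.0896% and 0.284% of the summed FPKM of the table. Because the cells were measured in bulk, fewer cells with the transcript and less of it per cell cannot be told apart.

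**Figure D1:**
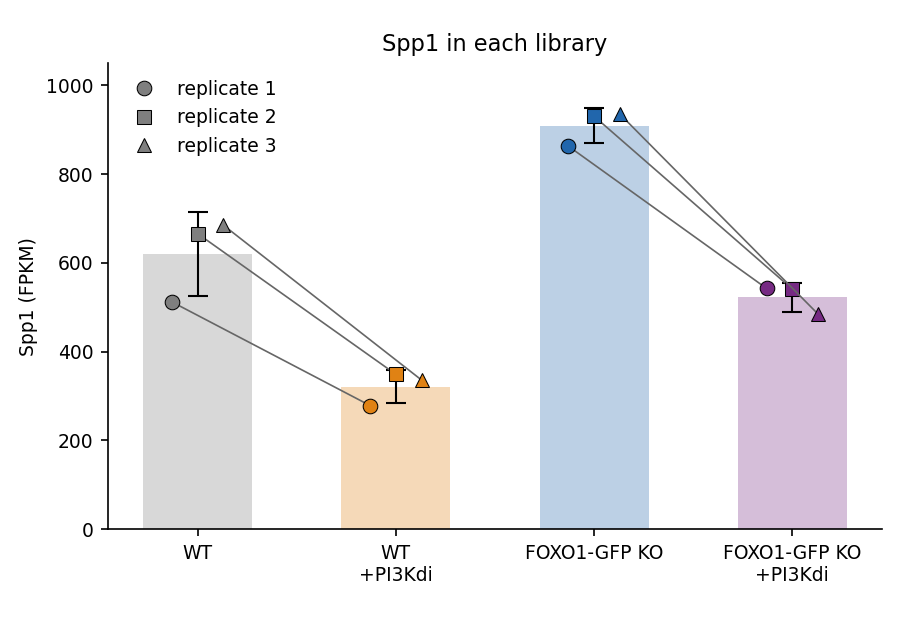
Spp1 in FPKM in each of the 12 libraries, with bars at the group mean, error bars of 1 SD (n = 3) and grey lines that join libraries of the same genotype and replicate number without and with PI3Kdi. All 6 lines fall, and the FOXO1-GFP KO bars stand above the WT bars of the same treatment (909 against 621 FPKM, and 522 against 321 FPKM).

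The order of the groups was FOXO1-GFP KO, WT, FOXO1-GFP KO+PI3Kdi and WT+PI3Kdi. Of the neighbours in that order, only WT and FOXO1-GFP KO+PI3Kdi overlapped: the lowest WT library, at 511.89 FPKM, was below 2 of the 3 inhibitor-treated KO libraries, the highest of which was 542.32 FPKM. Their means differed by 98.2 FPKM, close to the WT SD. Spp1 in the inhibitor-treated KO cells thus overlapped with that in untreated WT cells. The other neighbours were apart, KO from WT by 288 FPKM in the mean and KO+PI3Kdi from WT+PI3Kdi by 201 FPKM.

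Libraries that shared a genotype and a replicate number deviated together over all genes, so the fall of Spp1 with PI3Kdi is also given by pair. The ratio of PI3Kdi to vehicle was 0.544, 0.524 and 0.490 in WT replicates 1, 2 and 3. In FOXO1-GFP KO it was 0.629, 0.581 and 0.518. In both genotypes all libraries with PI3Kdi lay below all libraries without it, as for 5.81% of all genes in WT and 4.8% in the KO. Spp1 was lower in all 6 pairs, by 48.1 ± 2.7% in WT and by 42.4 ± 5.54% in FOXO1-GFP KO (SD, n = 3 pairs each). The pairs lost between 233 and 349 FPKM in WT and between 320 and 450 FPKM in FOXO1-GFP KO.

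WT replicate 1 had the lowest Spp1 of its group with vehicle and also the lowest with PI3Kdi, and the 3 WT ratios lay close together. In the KO, replicate 3 had the highest value with vehicle and the lowest with PI3Kdi, and so the steepest fall. The WT+PI3Kdi libraries were shallower than the WT libraries (15.2 to 19.0 against 25.1 to 48.0 M reads), whereas in the KO the depths overlapped (17.7 to 30.6 against 12.9 to 32.8 M reads). The part of depth in the Spp1 values was not tested. On the scale of log2(FPKM + 0.1) the fitted changes with PI3Kdi were -0.95 for WT and -0.80 for the KO (SE 0.14 each, and 0.07 with the pair as a random effect). The KO change minus the WT change was 0.15, with an SE of 0.20 without and 0.099 with the pair. This difference was not tested, since it rests on the changes for which Spp1 was chosen.

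In WT, Spp1 stood alone among abundant genes in the size of this fall, which is what it was chosen for. Of the 469 genes with a WT mean of at least 100 FPKM, it had the largest fall in WT and was the only one lower by over 1.5-fold; the 5th to 95th percentiles of these genes were -0.21 to 0.27 on the log2 scale. In WT the next in size were Prf1, the gene of the pore-forming protein perforin (-0.47), the stress gene Gadd45g (-0.41), the fatty acid desaturase gene Scd2 (-0.40) and Glipr1 (-0.38). In the other direction Gbp2, an interferon-inducible guanylate-binding protein gene, had a log2 difference of 0.84 and Ifngr1, for a chain of the interferon-γ receptor, of 0.57. The microRNA gene Mir6236 also had 0.84, with means of 2339 FPKM with and 1079.9 FPKM without PI3Kdi and a wide spread between replicates.

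In FOXO1-GFP KO the same 469 genes had percentiles of -0.25 and 0.37. Spp1 again had the largest fall, but here it was 1 of 3 genes lower by over 1.5-fold. Of the 478 genes at 100 FPKM or more in the KO itself, only Gm25732 (-1.03) and the ribosomal RNA gene n-R5-8s1 (-2.07), neither of which is protein coding, had larger falls. Across the whole table, 1857 genes (14%) were lower with PI3Kdi in all 6 pairs. By the fitted log2 change, 35 of the 13283 genes in WT and 59 in the KO fell more than Spp1. The smallest fall of Spp1 in a pair, a log2 change of -0.67, served as a cut-off, which Spp1 meets by construction. Only 2 genes had this change or a lower one in every pair. They were Spp1 itself and Zfp683, named here after its values were seen, the gene of the tissue-residency transcription factor Hobit, with means of 9.45 and 4.0 FPKM in WT and WT+PI3Kdi, and of 9.09 and 4.83 FPKM in the KO. In FPKM lost, Spp1 ranked 3 in WT and 5 in FOXO1-GFP KO among all genes.

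**Figure D2:**
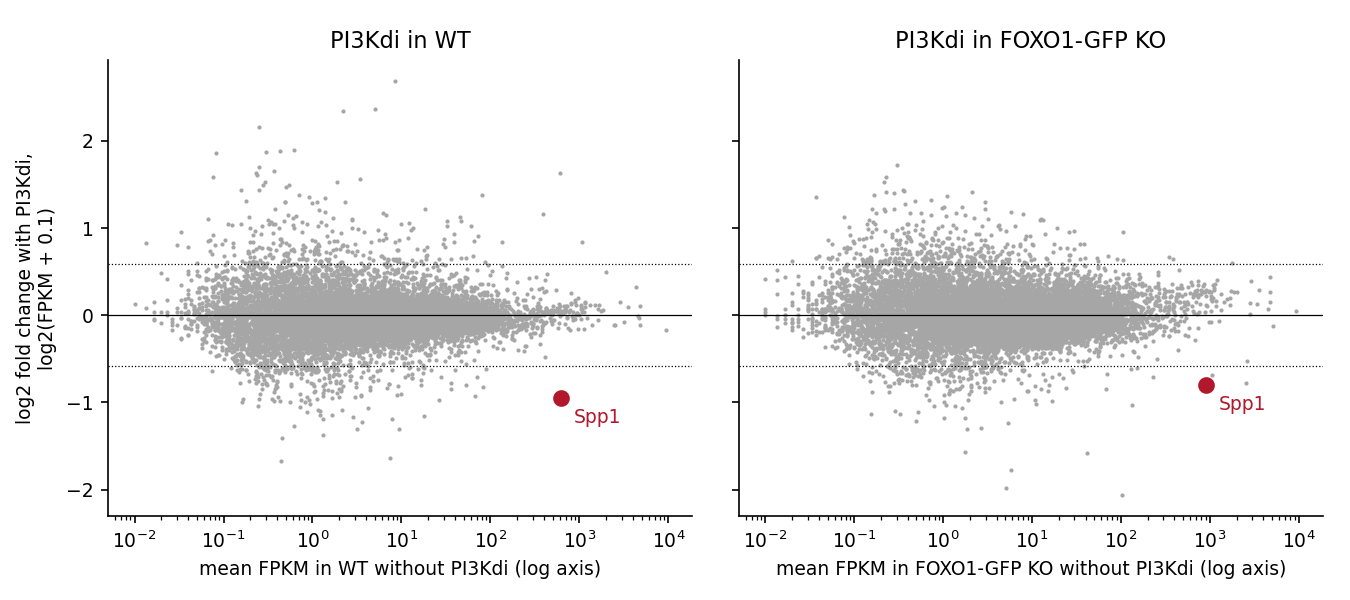
Each grey point is 1 of 13283 genes, with its mean FPKM without PI3Kdi on a log axis (values under 0.01 drawn at 0.01) and its fitted log2 fold change with PI3Kdi, in WT (left) and FOXO1-GFP KO (right); dotted lines mark a 1.5-fold change. Spp1 (red, -0.95 and -0.80) lies apart from genes of its level in both genotypes.

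The genotype comparisons were not used to choose Spp1, although they share their libraries with the comparisons that were. Their p-values are therefore not independent of that choice. Without PI3Kdi, Spp1 was higher in FOXO1-GFP KO than in WT by 0.56 on the log2 scale (95% interval 0.25 to 0.88). All 3 KO libraries lay above all 3 WT libraries, which 3.54% of all genes also did. The difference did not pass the test (limma, Benjamini-Hochberg adjusted p = 0.169 over 13283 genes; unadjusted p = 0.00223), and its ratio of 1.48 was under the 1.5-fold that a call required. In this comparison 44 genes were called (0.331%), 9 of them higher in the KO (0.0678%), and with 1 library left out between 8 and 39 were.

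With PI3Kdi in both genotypes, Spp1 was higher in FOXO1-GFP KO by 0.71 on the log2 scale (SE 0.14, 95% interval 0.39 to 1.02), a ratio of 1.63. The KO libraries were again all above the WT libraries, as for 6.85% of genes. This difference passed the test (limma adjusted p = 0.0332), beside 193 genes called in all (1.45%) and 58 called higher (0.437%). The lower side of the comparison was WT+PI3Kdi, whose low Spp1 was part of the choice, so this p-value is not free of it. Among the 469 abundant genes Spp1 ranked 6 from the highest in this difference, and 7 without PI3Kdi, so others rose more in the KO. It was the only one of them called higher. Bnip3, H2-Q6, H2-Q7, Tpi1 and Tpm4, named after their values were seen, were called lower. The call held with the replicate pair as a random effect (adjusted p = 0.0344) but was lost, with the direction kept, when the libraries were centred on equal medians (adjusted p = 0.0528) or when only the 6 libraries compared were fitted (adjusted p = 0.109). It was also lost when any 1 of the 6 libraries was left out, with differences between 0.61 and 0.77 and limma adjusted p-values between 0.0646 and 0.136.

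The markers of other cell types that can secrete osteopontin were looked at beside these levels. Of 12 myeloid markers, Cd68, Itgam, Cd14 and Fcgr3 were in the table and Lyz2, Csf1r, Adgre1, Mrc1, Cd163, C1qa, C1qb and Ctsk, among them the defining genes of macrophages and osteoclasts, were not listed. The summed level of the 4 ranged from 17.8 to 23.5 FPKM in WT and from 16.7 to 22.4 FPKM in the KO, and with the inhibitor from 17.2 to 29.0 and from 22.3 to 27.3 FPKM, nearly all of it Cd68. Itgam was at most 0.16 FPKM in any library. The B cell markers Cd79b, Ighm and Igkc (3 of 8 in the table) summed to 11.4 to 15.6 FPKM in WT and to 4.48 to 6.88 FPKM in FOXO1-GFP KO, the opposite order to Spp1, and Cd79a, Ms4a1, Pax5 and Cd22 were not listed. Of 4 CD4 T cell markers 3 were in the table and summed to 4.96 to 8.24 FPKM, of 6 dendritic cell markers 4 summed to 4.56 to 8.93 FPKM, and of 4 NK cell markers Klrb1c and Eomes, which CD8 T cells also express, summed to 84.1 to 114 FPKM. The part of these markers in the Spp1 levels was not tested.

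Of 20 cytokine and chemokine genes listed with Spp1, 16 were in the table, and on the same length-normalised scale Spp1 was above all 16 in the WT mean. Mif, for macrophage migration inhibitory factor, followed at 487 ± 127 FPKM, then Lta, for lymphotoxin α, at 257 ± 55.4, Tnf at 82.6 ± 12.8 and Tgfb1 at 71.9 ± 3.85 (SD, n = 3). With PI3Kdi this order changed: Mif, at 455 ± 120 FPKM, was above Spp1 in WT+PI3Kdi. The lowest were Ccl3, Csf2, Xcl1 and Csf1, all under 4 FPKM in the mean.

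**Figure D3:**
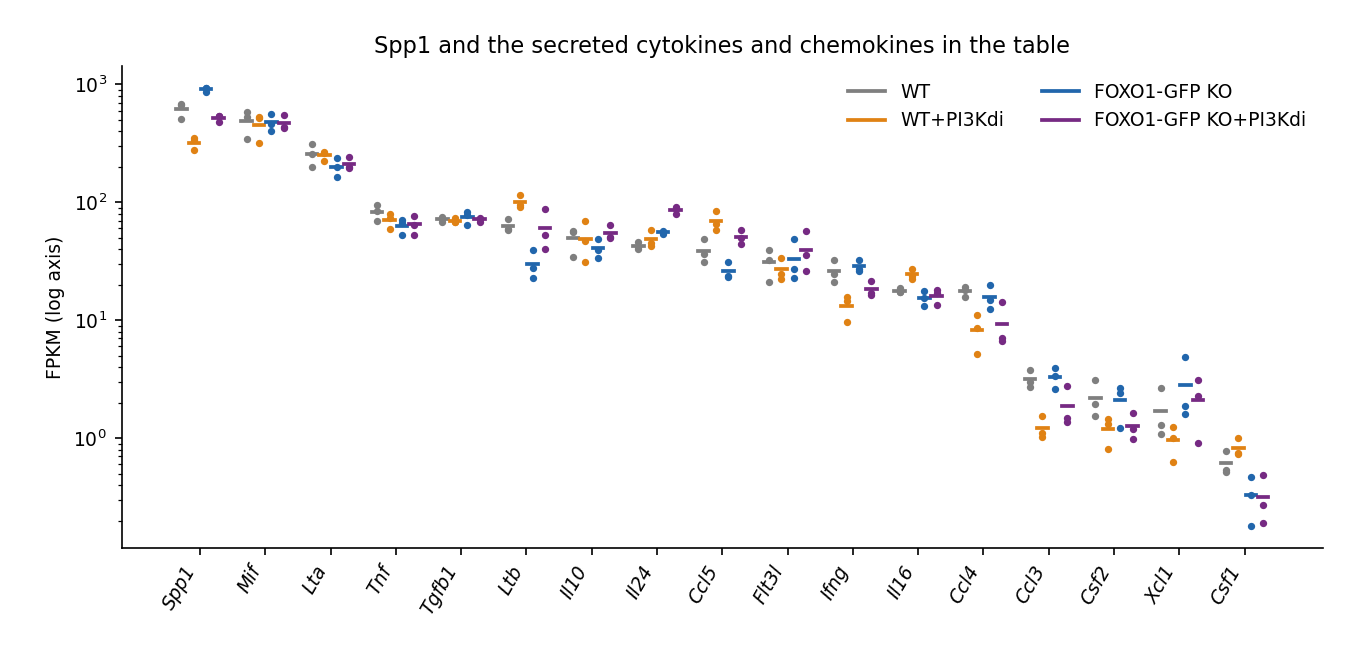
Spp1 and the 16 cytokine and chemokine genes of the table, in order of their WT mean, with 1 point per library and a line at the mean of each group, in FPKM on a log axis. Spp1 is the highest of these genes in the WT mean (621 FPKM). Its group mean is below that of Mif only with PI3Kdi in WT (321 against 455 FPKM).

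Without a term for the pairs, no gene of this list was called with PI3Kdi, against 0.0979% of all genes in WT and 0.0452% in FOXO1-GFP KO; 7 genes in WT and 6 in the KO had an unadjusted limma p under 0.05, and limma with voom weights on the recovered reads also called 0 in both. With the pair as a random effect, where 2.57% and 2.79% of all genes were called, 5 genes passed in WT and 6 in the KO. Ifng, the signature cytokine of CTL, fell in WT from 21.08, 24.86 and 32.44 to 9.73, 14.55 and 15.63 FPKM (log2 change -0.97, adjusted p = 0.00044 with the pair). In the KO it fell from 26.4, 27.25 and 32.3 to 21.68, 16.88 and 16.23 FPKM (-0.65, adjusted p = 0.0066). The Ifng libraries with inhibitor all lay below those without it in both genotypes, as for 5.81% of all genes in WT and 4.8% in the KO.

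Ccl3 and Ccl4, for inflammatory chemokines, also fell in both genotypes with the pair in the fit. The log2 changes in WT and the KO were -1.31 and -0.83 for Ccl3 and -1.15 and -0.80 for Ccl4. Ccl5, for another chemokine that T cells secrete, rose by 0.84 and 0.95, and Ltb, for lymphotoxin β, rose by 0.68 and 0.97. Il24, an IL-10 family cytokine, passed in the KO (0.63, adjusted p = 0.00038) and had 0.18 in WT (adjusted p = 0.13). The difference between these responses, in the same fit, had an adjusted p of 0.097, in a comparison where 0.0226% of all genes were called (0% without the pair). The list as a whole had a median log2 change of -0.07 in WT and 0.01 in the KO, near the medians of all genes (-0.04 and -0.02).

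In FOXO1-GFP KO against WT with PI3Kdi, Il24 was the only 1 of the 16 called, against 1.45% of all genes (1.18% with the pair). It was at 42.31, 58.45 and 45.14 FPKM in WT+PI3Kdi and at 91.12, 87.22 and 80.08 FPKM in FOXO1-GFP KO+PI3Kdi (log2 difference 0.84, limma adjusted p = 0.0048). With the pair as a random effect Il16 was called lower as well (-0.60, adjusted p = 0.040). Without PI3Kdi no gene of the list was called by limma, by limma with voom weights or with the pair, and 4 had an unadjusted p under 0.05. Over all genes, limma called 0.331% in that comparison and 0.233% with the pair.

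The receptors of osteopontin were present at a wide range of levels. Of 10 listed, Itgb6 and Itga8 were not in the table. Among the other 8, Itgb1, the common β chain, was at 104 ± 32.7 FPKM in WT, the hyaluronan receptor gene Cd44 at 26.8 ± 8.40 and Itgav, the αv chain that binds the RGD site, at 16.4 ± 5.51 (SD, n = 3). The αv partners were lower, Itgb3 at 3.84 ± 1.58 FPKM and Itgb5 at 1.55 ± 0.436. Itga4, Itga5 and Itga9, whose products pair with the β chain of Itgb1, were at 0.757, 1.56 and 0.643 FPKM.

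No receptor gene was called with PI3Kdi by limma or with voom weights. Limma called 0.0979% of all genes in WT and 0.0452% in the KO. An unadjusted p under 0.05 was seen for 1 receptor gene in WT and 0 in the KO. With the pair as a random effect, Itga4 rose in WT, from 1.18, 0.67 and 0.42 to 2.60, 1.38 and 1.09 FPKM (log2 change 1.07, adjusted p = 0.0075), the opposite direction to Spp1. In that fit 2.57% of all genes were called in WT. In FOXO1-GFP KO+PI3Kdi against WT+PI3Kdi, Itgb5 was lower, with 0.71, 0.71 and 0.65 FPKM against 1.30, 1.53 and 1.84 (-1.06, limma adjusted p = 0.0300). That call, beside 1.45% of all genes called, was lost with the pair (adjusted p = 0.21), where 1.18% were called. The 8 receptor genes had a median genotype difference of -0.33 without and -0.41 with PI3Kdi, beside -0.01 and 0.01 over all genes. Itgb5 with PI3Kdi was the only call among them. Between genotypes limma called 0.331% of all genes without and 1.45% with PI3Kdi.

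Of 8 genes for enzymes that modify or cleave osteopontin, 3 were in the table: Acp5, a phosphatase that removes its phosphates, Tgm2, the transglutaminase that cross-links it, and Mmp9, a matrix metalloproteinase. Tgm2 was higher in FOXO1-GFP KO+PI3Kdi than in WT+PI3Kdi, with 145.82, 116.47 and 193.01 FPKM against 56.90, 52.48 and 56.54 (log2 difference 1.42, SE 0.19, limma adjusted p = 0.0035). Without PI3Kdi the same comparison gave 0.82 and did not pass (adjusted p = 0.13). Mmp9, at low levels throughout, was at 0.19, 0.50 and 0.11 FPKM against 1.5, 1.02 and 1.32 (-2.04, adjusted p = 0.0410, and 0.075 with the pair). Acp5 was between 53.6 and 60.4 FPKM in the mean of every group. No gene of the 3 was called with PI3Kdi by limma, with voom weights or with the pair, and none had an unadjusted p under 0.05. Over all genes, limma called 0.0979% with PI3Kdi in WT and 0.0452% in the KO. With the pair these shares were 2.57% and 2.79%. Between genotypes with PI3Kdi, 1.45% of all genes were called (1.18% with the pair).

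**Figure D4:**
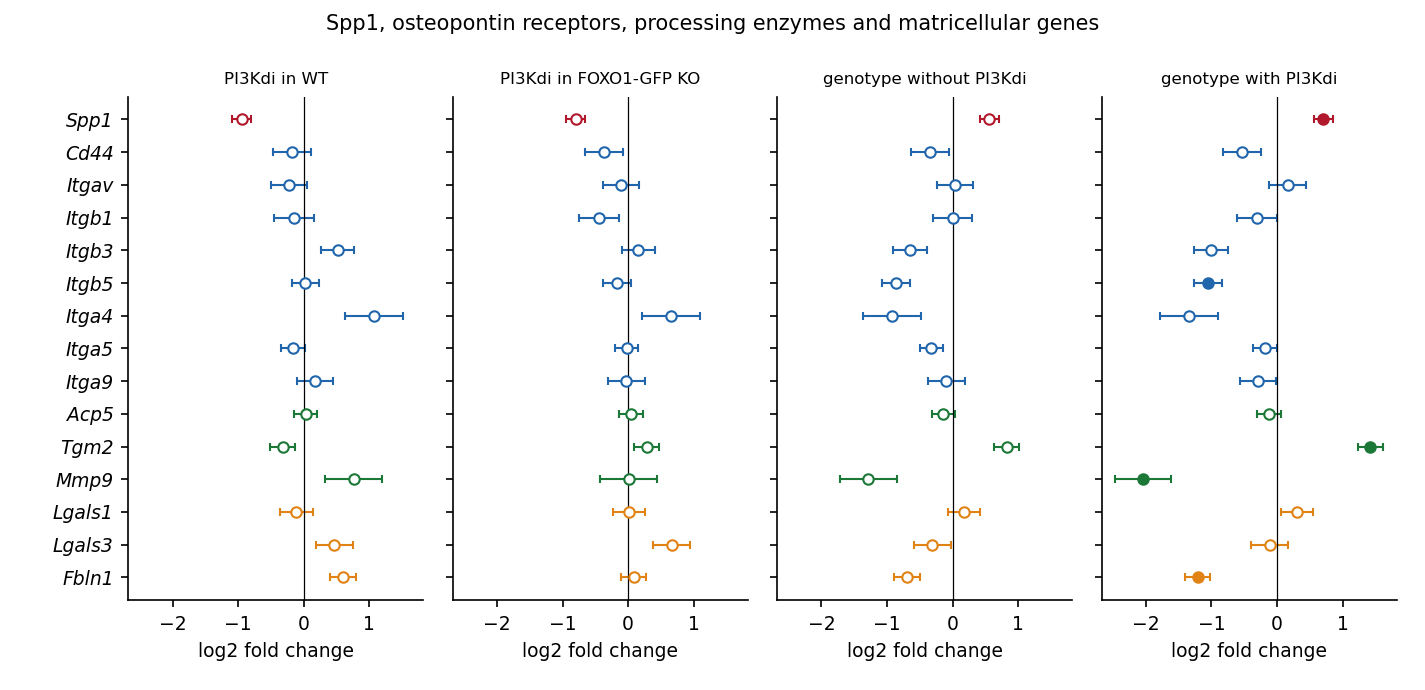
Fitted log2 fold change on the log2(FPKM + 0.1) scale, with its SE, of Spp1 (red), 8 osteopontin receptor genes (blue), 3 processing enzyme genes (green) and 3 matricellular genes (orange) in 4 comparisons; filled points passed limma's adjusted p of 0.05 with over 1.5-fold, and Spp1 was not tested with PI3Kdi. In FOXO1-GFP KO against WT with PI3Kdi, Spp1 (0.71) and Tgm2 (1.42) are higher, and Itgb5 (-1.06), Mmp9 (-2.04) and Fbln1 (-1.21) are lower.

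The 4 other members of the small integrin-binding ligand glycoprotein family, Ibsp, Dmp1, Dspp and Mepe, which are bone and tooth matrix genes on the same chromosome as Spp1, were not in the table. Of 13 other matricellular or matrix glycoprotein genes, only Lgals1, Lgals3 and Fbln1 were. The galectin genes Lgals1 and Lgals3 were abundant, at 2532 ± 577 and 435 ± 101 FPKM in WT (SD, n = 3). Lgals3 moved the other way from Spp1 with PI3Kdi in the KO, from 328.37, 313.38 and 397.98 to 465.12, 605.51 and 578.62 FPKM (0.66, adjusted p = 0.013 with the pair, 0.89 without). Fbln1, for the matrix protein fibulin-1, was under 0.57 FPKM in every library and lower in the KO with PI3Kdi (-1.21, limma adjusted p = 0.0097, and 0.065 with the pair). Between genotypes with PI3Kdi, 1.45% of all genes were called (1.18% with the pair). With PI3Kdi in the KO, 2.79% were called with the pair and 0.0452% without.

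The 11 genes for transcription factors of families known from Spp1 promoters were all in the table. Of these, 0 were called in any of the 5 comparisons by limma, with voom weights or with the pair. Over all genes, the share called per comparison was 0% to 1.45% by limma and 0.0226% to 2.79% with the pair. Between 0 and 2 of the 11 had an unadjusted p under 0.05. Runx3, the leading RUNX gene of CD8 T cells, was at 33.8 ± 1.79 FPKM in WT, Ets1 at 27.5 ± 8.79 and Tbx21, for T-bet, at 11.7 ± 0.229 (SD, n = 3). Tbx21 had log2 changes with PI3Kdi of 0.02 in WT and 0.42 in the KO. Jun, of the AP-1 family, had 0.43 and 0.35, and Hif1a 0.23 and -0.22. None of these changes reached 1.5-fold.

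The 10 ERK feedback genes, which are transcribed in response to ERK signalling, were all in the table. ERK activity was not measured in these libraries, and a link between these genes and Spp1 was not tested. With PI3Kdi 9 of 10 had a negative log2 change in WT (median -0.25, all genes -0.04) and 10 of 10 in FOXO1-GFP KO (median -0.51, all genes -0.02). Limma without the pair called 0, as it did with voom weights, and 2 genes in each genotype had an unadjusted p under 0.05. With the pair, where 2.57% of all genes in WT and 2.79% in the KO were called, 2 genes passed in WT and 3 in the KO. The immediate early gene Egr1 fell in both genotypes, with log2 changes of -1.19 in WT and -0.77 in the KO (limma adjusted p = 0.0049 and 0.036). Phlda1 passed in WT (-0.59), and Etv5 (-0.72) and the ERK pathway inhibitor Spry1 (-0.65) passed in the KO. In FOXO1-GFP KO against WT, where Spp1 was higher, 8 of the 10 had a negative difference without PI3Kdi and 8 with it. The medians were -0.34 without and -0.39 with PI3Kdi, beside -0.01 and 0.01 over all genes. Spry1 was the only 1 of the 10 called between genotypes with PI3Kdi, against 1.45% of all genes (-1.61, limma adjusted p = 0.00083). It had 0.06, 0.05 and 0.06 FPKM in the KO against 0.33, 0.43 and 0.38 in WT. The KO values lie under the pseudocount of 0.1 FPKM and rest on few reads. No gene of the 10 was called there with a pseudocount of 1 FPKM or among genes averaging at least 1 FPKM.

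Within 1 Mb of Spp1 the table held 18 other genes. None was called in any of the 5 comparisons by limma or with voom weights, and between 0 and 3 per comparison had an unadjusted p under 0.05. Over all genes, limma called 0% to 1.45% per comparison. With the pair, 2.57% of all genes were called with PI3Kdi in WT and 2.79% in the KO. Pkd2, the nearest coding gene at 18400 bp downstream, was at 0.423 ± 0.0115 FPKM in WT and 0.763 ± 0.116 in FOXO1-GFP KO (log2 difference 0.71, limma adjusted p = 0.14). With PI3Kdi its log2 changes were -0.27 and -0.24. The 6 guanylate-binding protein genes downstream of it (Gbp8, Gbp9, Gbp4, Gbp10, Gbp6 and Gbp11) had log2 changes with PI3Kdi between -0.36 and 0.54, and none was called, with the pair or without.

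The exception with the pair was Gm42793, a model of unknown coding status at chr5:104435121-104436372 on the same strand, inside the 5′ part of Spp1. Its exon shares 309 bp with Spp1, 18.8% of the exon bases of Spp1 and 24.7% of its own, and reads in shared bases cannot be assigned to either gene. WT libraries had 1.27, 1.58 and 0.80 FPKM without and 0.46, 0.42 and 0.62 with PI3Kdi. The KO had 1.38, 1.07 and 0.62 FPKM without and 0.63, 0.68 and 0.23 with PI3Kdi. Its level was below 0.25% of that of Spp1 in every library and rested on 5 to 95 reads, so its changes (-1.10 and -0.91, adjusted p = 0.012 and 0.027 with the pair) are uncertain, and they cannot be told apart from reads that arose from Spp1.

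The genes whose pattern was most like that of Spp1 were found by Pearson's r over log2(FPKM + 0.1) of the 12 libraries, among the 9546 other genes that averaged 1 FPKM or more and were not predicted gene models. The libraries fall into 4 groups and 6 pairs, so these are descriptions. The highest 3 were Leo1, for a subunit of the PAF1 transcription complex (r = 0.942), the annexin gene Anxa3 (0.932) and the aldo-keto reductase gene Akr1b8 (0.929). Anxa3 was at a far lower level, with the same highest and lowest groups as Spp1 but with FOXO1-GFP KO+PI3Kdi above WT in the mean. It had 1.53, 1.64 and 1.83 FPKM in the WT libraries and 0.71, 0.79 and 0.96 with PI3Kdi. The KO libraries had 2.97, 3.64 and 2.75 FPKM with vehicle and 1.89, 2.54 and 1.48 with the inhibitor. Leo1 followed the order of the groups of Spp1 with a small amplitude, from 6.58 FPKM in the lowest group to 8.25 in the highest. Of the members of the lists, Ifng (r = 0.92) and Ccl3 (0.83) had the highest r and Itga4, Ccl5 and Ltb (-0.84 each) the lowest.

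The most opposite pattern was that of Pdcd4, a translation inhibitor gene (r = -0.985). WT cells had 14.57, 10.79 and 12.86 FPKM with vehicle and 26.81, 22.62 and 25.81 with the inhibitor. KO cells had 8.31, 8.74 and 8.63 FPKM, and 15.41, 15.67 and 17.40 with the inhibitor. The phosphoinositide phosphatase gene Mtmr3 (-0.961) and the TNF receptor family gene Tnfrsf26 (-0.955) followed; Tnfrsf26 had means of 9.91 FPKM in WT and 4.41 in the KO, and of 20.4 and 8.90 with the inhibitor. When each pair was first centred on its own mean, which leaves only the change with PI3Kdi, r was 0.993 or higher for Nars, Ptpn12, Cd82, Lman2l and Gars, and the 95th percentile over the same 9546 genes was 0.925, so that this measure separated few genes.

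**Figure D5:**
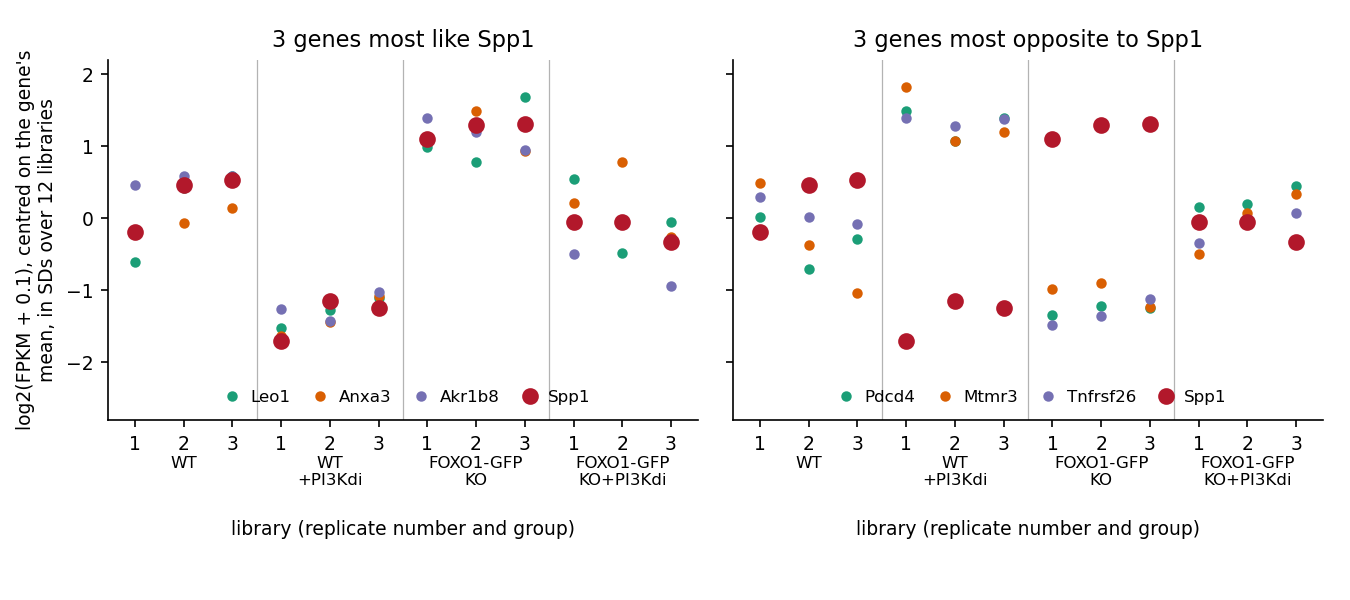
Level in each of the 12 libraries of Spp1 (large red points) with the 3 genes of highest r (left) and the 3 of lowest r (right), as log2(FPKM + 0.1) centred on each gene's mean and divided by its SD over the libraries. The genes on the left share the order FOXO1-GFP KO highest and WT+PI3Kdi lowest, and Pdcd4, Mtmr3 and Tnfrsf26 show it inverted.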

How the data were processed

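Poly(A)-selected, stranded RNA-seq libraries from 12 cultures of sorted CTL were examined. The authors aligned paired-end reads with STAR 2.7.1a to GRCm38.p6, counted reads per Ensembl gene, removed low-count genes, scaled libraries by TMM in edgeR, and deposited FPKM, rounded to 2 decimals, computed from the summed exon length. A gene removed by their filter is not in the table and cannot be called absent. All 12 columns of values were used (0 left out).

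From these values log2(FPKM + 0.1) was fitted with limma 3.58.1 in R 4.3.3, as 4 group means over all 12 libraries with a mean-variance trend and Benjamini-Hochberg adjustment over 13283 genes. A gene was called at an adjusted p under 0.05 and a fold change over 1.5, as in the study. The pseudocount makes fold changes of low genes too small. The script was tested on simulated data. Tables were assembled with Python 3.11.15 and pandas 2.3.3.

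Whether replicate numbers pair libraries was checked by correlating deviations from group means over 10373 genes. Within a genotype r was between 0.59 and 0.84 for the 3 pairs of each genotype, and across genotypes between -0.50 and 0.73, so libraries with the same number were treated as pairs inside each genotype and not between them. The pair entered as a random effect (consensus correlation 0.757). Replicates are labelled as biological, but whether each came from its own mouse is not given in the sources used here.

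Depth, here the library size after TMM scaling, was recovered from the steps between low FPKM values. Between 98.5% and 99.8% of values of genes held out from that search then came out as whole reads, within a tolerance of 0.2, against 40% by chance. Counting errors cover counting only.

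Spp1 and all gene lists were chosen with earlier results of these data known. Named genes were Spp1, Foxo1, the members of the lists and the genes within 1 Mb of Spp1, those nearest to it in WT level, those with the highest and lowest r (of 5 with the highest, 3 are reported here), and, above 100 FPKM in WT, the 5 largest falls and 3 largest rises with PI3Kdi; predicted gene models were left out of the rules on r, WT level and change. Exons came from GENCODE M21 and promoters from RefSeq, both on GRCm38. The alternatives were another pseudocount, a filter at 1 FPKM, pairing, scaling, the groups in the fit, voom on recovered reads, and each library left out.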

Additional observations from a re-analysis of the deposited data

How the results depend on the processing

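The log2 differences of Spp1 kept their direction under all 80 alternatives tried over its 5 comparisons, and 72 kept their side of the threshold or, where no test was made, stayed within 1 SD between replicates. The exceptions were all in FOXO1-GFP KO against WT with PI3Kdi, where the difference of 0.71 lost its call with equal library medians (0.73), with only the 6 libraries compared in the fit (0.71), and with 1 library left out (0.61 to 0.77). With 1 library left out the other comparisons of Spp1 ranged from -1.08 to -0.85 (PI3Kdi in WT), -0.84 to -0.75 (PI3Kdi in the KO), 0.05 to 0.28 (difference of these) and 0.43 to 0.64 (genotype without PI3Kdi). The cause was not tested.

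With the replicate block within genotype, which pairs the libraries, the genotype difference of Spp1 with PI3Kdi stayed past the threshold and that without PI3Kdi did not pass it. Over all genes the calls with PI3Kdi rose from 13 to 342 in WT and from 6 to 370 in the KO, and with voom as well to 404 and 498; the difference of responses went from 0 to 3 and 8. The block shared by all groups gave 99, 42, 178 without and 440 with PI3Kdi between genotypes (44 and 193 without a block). The fit of 2 groups gave 0 in WT, 0 in the KO, 0 between genotypes without and 94 with PI3Kdi. With 1 library left out, the calls were 1 to 10 with PI3Kdi in WT (under 10 without WT replicate 2 or 3 or WT+PI3Kdi replicate 1 or 3), 0 to 2 in the KO (without any of the 6), 8 to 39 between genotypes without PI3Kdi (20 or fewer without any but WT replicate 3) and 111 to 136 with it (124 or fewer without WT+PI3Kdi replicate 3 or FOXO1-GFP KO+PI3Kdi replicate 2 or 3). TPM gave 2 and 0 with PI3Kdi, voom 22 in WT, and the 1 FPKM filter 4 in the KO and 111 between genotypes with PI3Kdi.

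Counts of list members called moved mostly with the block. With PI3Kdi the block within genotype, alone or with voom, called 1 receptor in WT, 1 matricellular gene in each genotype, 5 and 6 secreted genes, 2 and 3 ERK feedback genes and 1 neighbouring gene (0 each without it), and with voom 1 processing enzyme in WT. The shared block called 3 secreted genes with PI3Kdi in each genotype. Between genotypes without PI3Kdi it called 1 receptor, 1 enzyme, 1 secreted, 1 ERK feedback and 1 neighbouring gene; voom with the block called 1 secreted gene. Between genotypes with PI3Kdi the shared block called 3 receptors, 4 secreted, 2 ERK feedback and 1 neighbouring gene. For genotype with PI3Kdi, the receptor count of 1 became 0 with the block, with voom, with both, in the 2-group fit and over left-out libraries (0 to 1). The enzyme count of 2 became 1 with the filter, the block, TPM, 2 groups and left-out libraries (1 to 2). The matricellular count of 1 became 0 with pseudocount 1, the filter, the block, 2 groups, and voom with the block. The secreted count of 1 became 2 with the block, TPM, and voom with the block, and 0 with 2 groups. The ERK feedback count of 1 became 0 with pseudocount 1 and with the filter. The neighbour count of 0 became 1 with equal medians and over left-out libraries (0 to 1).

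With 3 libraries a group, differences of Spp1 between genotypes of the size seen lie near what this fit can call. Values near 0.1 FPKM rest on few reads.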
